A study of Caenorhabditis elegans with 8 samples.

Results

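The antioxidant enzymes and metallothioneins described here are 10 listed genes, chosen with earlier results of these data known. They are the superoxide dismutases sod-1, sod-2 and sod-3, the catalases ctl-1 and ctl-2 and the peroxiredoxins prdx-2 and prdx-3. The others are the thioredoxin reductase trxr-1 and the metallothioneins mtl-1 and mtl-2. Each gene was matched by its symbol to features annotated with exactly 1 gene, all 10 were found, and each had 1 such feature, out of 25478 genes named on the array in this way. The study measured total RNA of whole Caenorhabditis elegans on 8 Affymetrix Gene 1.0 ST arrays, with 4 strains, 2 RNAi treatments and 1 array per group. By the labels, RNAi acts in the intestine in VP303, in muscle in NR350, in neurons in TU3401 and throughout the animal in wild-type N2. Worms of each strain ate bacteria for ash-2 RNAi or for control RNAi for 3 days, beginning as eggs and ending as young adults, and strains were kept at 20 °C.

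As background, VP303 and NR350 lack a working rde-1, the Argonaute needed for RNAi, and carry it back under the promoter of nhx-2, active in the intestine, or of hlh-1, active in body muscle, while TU3401 lacks the double-stranded RNA channel gene sid-1 and carries it back under the neuronal unc-119 promoter. VP303 also carries a dominant rol-6 marker and NR350 a sur-5 reporter. A strain therefore differs from N2 in its transgenes and its history as well as in where RNAi works, and with 1 array per group these cannot be told apart. The ASH-2 protein belongs to the COMPASS machinery, which places activating methyl marks on histone H3.

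Cells remove superoxide with superoxide dismutases, which turn it into hydrogen peroxide, and remove the peroxide with catalases or with peroxiredoxins, which thioredoxin and thioredoxin reductase keep reduced. Metallothioneins are small cysteine-rich proteins that bind metal ions. In the worm, mtl-2 is a gene of the intestine that metals induce, and mtl-1 is made in the pharynx and, after metal exposure, in the intestine. sod-3 and mtl-1 are widely used as reporters of DAF-16, the transcription factor at the end of insulin signalling.

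Values are RMA intensities on a linear scale as deposited, and differences are given as log2 of the intensity, so that 1 is a doubling. The lowest value on the 8 arrays was 18.01 and array medians lay between 21.1 and 21.6, so a gene near 20 is close to the bottom of the scale and its differences are understated. The RNAi target itself went against the labels. ash-2 had 233, 269, 198 and 183 units in the arrays labelled ash-2 of VP303, NR350, TU3401 and N2, against 148, 146, 122 and 150 units in the control arrays, and every direction of response below rests on those labels. Of the strain genes, rde-1 and rol-6 were higher in VP303, sur-5 in NR350 and sid-1 in TU3401 than in N2 (limma adjusted p from 8.24e-10 to 3.11e-04), while rde-1 did not pass in NR350 (adjusted p = 0.47). Although the labels name a tissue for each strain, all arrays held RNA of many tissues. The bright markers act-5 (intestine), unc-27 (muscle), snb-1 (neurons), gld-1 (germ line) and col-19 (epidermis) were high on every array. Their lowest values were 1070, 1960, 1807, 2855 and 1314 units. The marker lists of muscle, neurons and epidermis, 10 genes each, had 9, 8 and 9 members above 32 units on at least 1 array, and those of intestine and germ line had all 10. Not all of these were above 32 on every array. bli-1 was so only on the NR350 array labelled ash-2 (35.3 units), and rol-6 and dpy-13 only in VP303 and NR350. The members below 32 on every array were hlh-1 for muscle, unc-31 and snt-1 for neurons and dpy-7 for epidermis.

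With all features tested, the metallothioneins were the only members to pass limma in a strain pair. mtl-1 passed in most pairs and mtl-2 in NR350 against VP303 alone. mtl-1 had 44.5 and 41.3 units in VP303 (the array labelled ash-2, then its control), 21.7 and 20.5 in NR350, 28.4 and 27.2 in TU3401, and 30.1 and 30.3 in N2. VP303 stood highest and NR350 lowest, close to the bottom of the scale, and no strain's pair of arrays overlapped that of another. The mean level was lower in NR350 than in VP303 by 1.02 on the log2 scale (SE 0.09, 2.03-fold), in limma fitted over all 27792 features with strain and treatment as terms (adjusted p = 1.09e-04).

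The same gene separated 5 of the 6 strain pairs by the limma test. mtl-1 rose in VP303 against N2 by 0.51 (SE 0.09, 1.42-fold, adjusted p = 0.0401) and fell in NR350 against N2 by 0.52 (SE 0.09, 1.43-fold, adjusted p = 0.00713). Set against VP303, TU3401 was lower by 1.54-fold (log2 difference -0.63, adjusted p = 0.00932), and set against TU3401, NR350 was lower by 1.32-fold (-0.40, adjusted p = 0.0287). Only the neighbours TU3401 and N2 did not separate in the order VP303, N2, TU3401, NR350: the difference was -0.12, with a 95% confidence interval from -0.33 to 0.09. The call of VP303 against N2 was lost without the NR350 arrays (adjusted p = 0.0788), under quantile normalization (0.0514), without a variance trend (0.0532) and on the scale of the intensity minus 16 (0.086). On that last scale the mtl-1 differences were larger by over 1.5 times, at -2.40 for NR350 against VP303, -1.48 for NR350 against N2 and 0.92 for VP303 against N2. The NR350 values lie at the level of the array medians, so the size of any mtl-1 difference from NR350 is not fixed by these data, on either scale.

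mtl-2, the more strictly intestinal of the pair, was likewise highest in VP303 and lowest in NR350. Its intensities were 332 and 370.2 units in VP303, 190.0 and 191 in NR350, 240.0 and 370.2 in TU3401, and 276 and 300.4 in N2, again with the array labelled ash-2 before its control. Both NR350 arrays lay below all 6 others, and they differed from each other by less than any other strain's pair, while the TU3401 arrays lay further apart than those of any other strain. NR350 was lower than VP303 by 1.84-fold (-0.88, SE 0.17, limma adjusted p = 0.0136), a call that was lost without a variance trend (adjusted p = 0.0763). NR350 against N2 gave -0.60 (SE 0.17, 1.51-fold lower, adjusted p = 0.0678) and NR350 against TU3401 gave -0.65 (SE 0.17, adjusted p = 0.0506), neither of which passed. Both were past the threshold under other settings, at an adjusted p of 0.0269 and 0.0207 when features with a mean log2 up to 5 were dropped, and NR350 against N2 passed without the TU3401 arrays (0.0358).

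**Figure D1:**
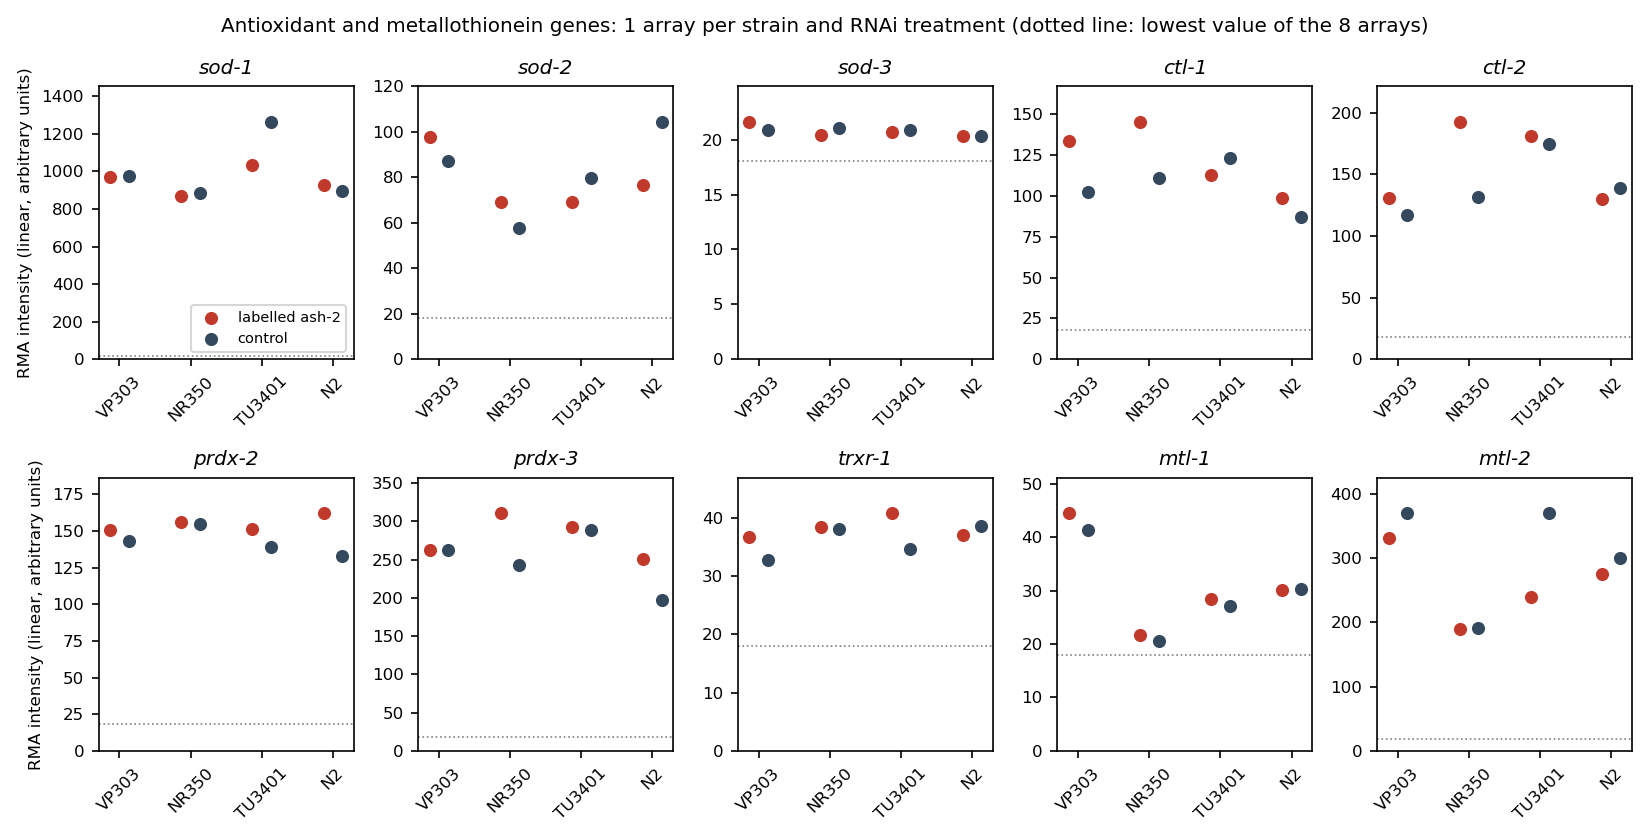
RMA intensity (linear axis from 0, arbitrary units) of each of the 10 genes on each of the 8 arrays, with the array labelled ash-2 (red) left of the control array (dark) in each strain; the dotted line marks the lowest value of the arrays, 18.01. The mtl-1 and mtl-2 points of NR350 lie lowest in their panels, at 20.5 to 21.7 and 190.0 to 191 units, and the control arrays of VP303 and TU3401 lie highest for mtl-2, at 370.2 units each.

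The differences of NR350 from VP303 and N2 had the same direction under each treatment for both metallothioneins. For NR350 against VP303, mtl-1 differed by -1.03 between the arrays labelled ash-2 and by -1.01 between the control arrays, and mtl-2 by -0.80 and -0.95. For NR350 against N2, the values were -0.47 and -0.56 for mtl-1 and -0.54 and -0.65 for mtl-2. The mtl-2 differences of TU3401 from N2 and VP303 were not alike between the treatments. Whether these mtl-2 differences depend on the treatment was not tested, as each group had 1 array. TU3401 against N2 gave -0.20 between the arrays labelled ash-2 and 0.30 between the control arrays, and TU3401 against VP303 gave -0.47 and -0.0002.

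Tissue markers also moved between the strains. The summed intensity of the 10 intestine markers, none of which is a metallothionein, was 2611 to 2847 units in VP303, 3770 to 3935 in NR350, 2671 to 2945 in TU3401 and 2295 to 2419 in N2, so it was highest in NR350, where mtl-1 and mtl-2 were lowest. The 10 muscle markers summed to 4228 to 4935 units in VP303, 7727 to 8582 in NR350, 4788 to 4809 in TU3401 and 4012 to 4892 in N2. The epidermis list without rol-6 (9 genes) summed to 5565 to 5707 in VP303, 6328 to 6718 in NR350, 3647 to 3927 in TU3401 and 3900 to 4730 in N2, and the germ line list to 8115 to 8131, 9249 to 9481, 8008 to 8606 and 9571 to 9765 in the same order. The neuron list lay between 2628 and 3161 over the 8 arrays, with 1807 to 2317 units from snb-1 alone. All these sums are weighted toward their brightest members. In NR350 against TU3401, 4 of the 10 neuron markers (ric-4, egl-3, egl-21 and ida-1) were higher by limma and 0 lower. In that pair 4.53% of all features were higher, and 16.3% of those with a mean log2 above 5 passed in either direction. By limma, 6 of the 10 intestine markers and 8 of the 10 muscle markers were higher in NR350 than in N2, and none was lower, where 4.02% of all features were higher and 3.16% lower. Of features with a mean log2 above 5, which include 9 markers of each of these lists, 17.9% passed in either direction. In the same comparison, 6 epidermis markers were higher and 1 lower (elt-1), 1 neuron marker was higher (egl-21), and 2 germ line markers were lower (glp-1 and oma-2). In RNA of whole animals, fewer cells of a type and less RNA per cell cannot be told apart, and the part of tissue content in the metallothionein differences was not tested.

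elt-2, itself one of the intestine markers, encodes the GATA factor known to activate both metallothionein genes. It had 102 and 99.7 units in VP303, 127 and 112 in NR350, 75.8 and 64.9 in TU3401, and 73.9 and 64.5 in N2. Its level was higher in NR350 than in N2 by 0.78 (SE 0.14, limma adjusted p = 0.00578) and than in TU3401 by 0.76 (adjusted p = 0.00784), the opposite direction to mtl-1. Both VP303 arrays lay above those of N2 and TU3401, the same direction as mtl-1, though neither difference of elt-2 passed. The part of elt-2 in the metallothionein levels was not tested. daf-16 had 489 and 479 units in NR350, against 352 and 286 in N2. It rose in NR350 against N2 by 0.61 (SE 0.15, adjusted p = 0.0331), and its values in VP303 (309 and 302) and TU3401 (345 and 280) lay within or near those of N2.

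Over the 8 arrays, mtl-1 and mtl-2 varied most among the 10 genes on the log2 scale (SD 0.39 each). The SD of mtl-2 was above that of 86.6% of the 8648 features with a mean log2 above 5. Of the 8008 such features with 1 symbol, those whose levels followed mtl-1 most closely were C47B2.2 (Pearson r = 0.98), emb-1, a subunit of the anaphase-promoting complex (r = 0.98), and sepa-1, an autophagy receptor for germ granule proteins in embryos (r = 0.97). C47B2.2 had 775 and 677 units in VP303, 293 and 292 in NR350, 401 and 400 in TU3401, and 381 and 427 in N2, the same high and low strains as mtl-1. For mtl-2 they were tag-296 (r = 0.98), F48C1.5 (r = 0.96) and R08B4.3 (r = 0.96). F48C1.5 had 211 and 364 units on the TU3401 arrays, so that, as for mtl-2, the array labelled ash-2 was the lower. These correlations describe 8 arrays that share 4 strains, were picked as the highest of many, and carry no test.

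The 3 superoxide dismutases did not pass in any strain pair, and each had its own pattern. sod-1 encodes the main cytosolic copper and zinc enzyme. It had 968 and 975 units in VP303, 870.0 and 886 in NR350, 1033 and 1264 in TU3401, and 927 and 895 in N2. Both TU3401 arrays lay above the 6 others and both NR350 arrays below them. The largest difference was NR350 against TU3401 (-0.38, 95% confidence interval -0.66 to -0.11, limma adjusted p = 0.103, and 0.0483 when features with a mean log2 up to 5 were dropped), and TU3401 against N2 was 0.33 (0.05 to 0.60, adjusted p = 0.247).

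sod-2, the manganese enzyme of mitochondria, had 97.7 and 87.0 units in VP303, 69.2 and 57.6 in NR350, 68.9 and 79.5 in TU3401, and 76.5 and 104 in N2. Its order from VP303 down to NR350 was the same as that of mtl-1, but the arrays of each strain overlapped those of its neighbours in that order. NR350 was lower than VP303 by 0.55 (95% confidence interval of the difference -0.94 to -0.15, limma adjusted p = 0.123) and than N2 by 0.50 (-0.90 to -0.11, adjusted p = 0.137), and neither passed.

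sod-3, the second mitochondrial enzyme and a reporter of DAF-16, lay between 20.3 and 21.6 units on all 8 arrays. That is at the level of the array medians, so no strain difference could be seen at this signal. The largest of its 6 pair differences was 0.07, for VP303 against N2, with a 95% confidence interval from -0.02 to 0.16.

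Neither catalase passed in a strain pair, and their orders of strains differed. ctl-1, the cytosolic catalase, had 134 and 103 units in VP303, 145 and 111 in NR350, 113 and 123 in TU3401, and 98.6 and 87.2 in N2. Both N2 arrays lay below the 6 others. NR350 against N2 gave 0.45 (95% confidence interval 0.09 to 0.82, limma adjusted p = 0.15), TU3401 against N2 gave 0.35 (adjusted p = 0.344) and VP303 against N2 gave 0.34 (adjusted p = 0.591).

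ctl-2, the peroxisomal catalase, had 131 and 117 units in VP303, 193 and 131 in NR350, 182 and 175 in TU3401, and 130.2 and 139 in N2. Here VP303 had the lowest mean and TU3401 the highest, and the NR350 arrays differed from each other more than any strain means did. TU3401 against VP303 gave 0.52 (95% confidence interval 0.14 to 0.91, limma adjusted p = 0.183). The 3 catalase genes ctl-2, ctl-1 and ctl-3 lie next to each other in the RefSeq annotation and are close copies. How far the array tells them apart is not known, and single catalase values are uncertain.

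The peroxiredoxins and thioredoxin reductase did not pass in any pair, and prdx-2 and trxr-1 varied least of the members beside sod-3 (SD over the 8 arrays 0.10 each on the log2 scale). prdx-2 encodes the main cytosolic peroxiredoxin. It had 151 and 143 units in VP303, 156 and 155 in NR350, 151 and 139 in TU3401, and 162 and 133 in N2. Strain means differed by at most 0.10, and every pair's interval held 0. prdx-3, the mitochondrial peroxiredoxin, had 262 and 262 units in VP303, 311 and 243 in NR350, 293 and 289 in TU3401, and 251 and 197 in N2. The N2 control array was the lowest of the 8, and TU3401 against N2 gave 0.39 (95% confidence interval 0.03 to 0.74, limma adjusted p = 0.28). trxr-1, a selenoprotein that reduces thioredoxin in the cytosol, had 36.8 and 32.9 units in VP303, 38.5 and 38.2 in NR350, 40.9 and 34.7 in TU3401, and 37.1 and 38.6 in N2. All lay near 32, and its largest strain difference was 0.14 (NR350 against VP303, adjusted p = 0.646).

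**Figure D2:**
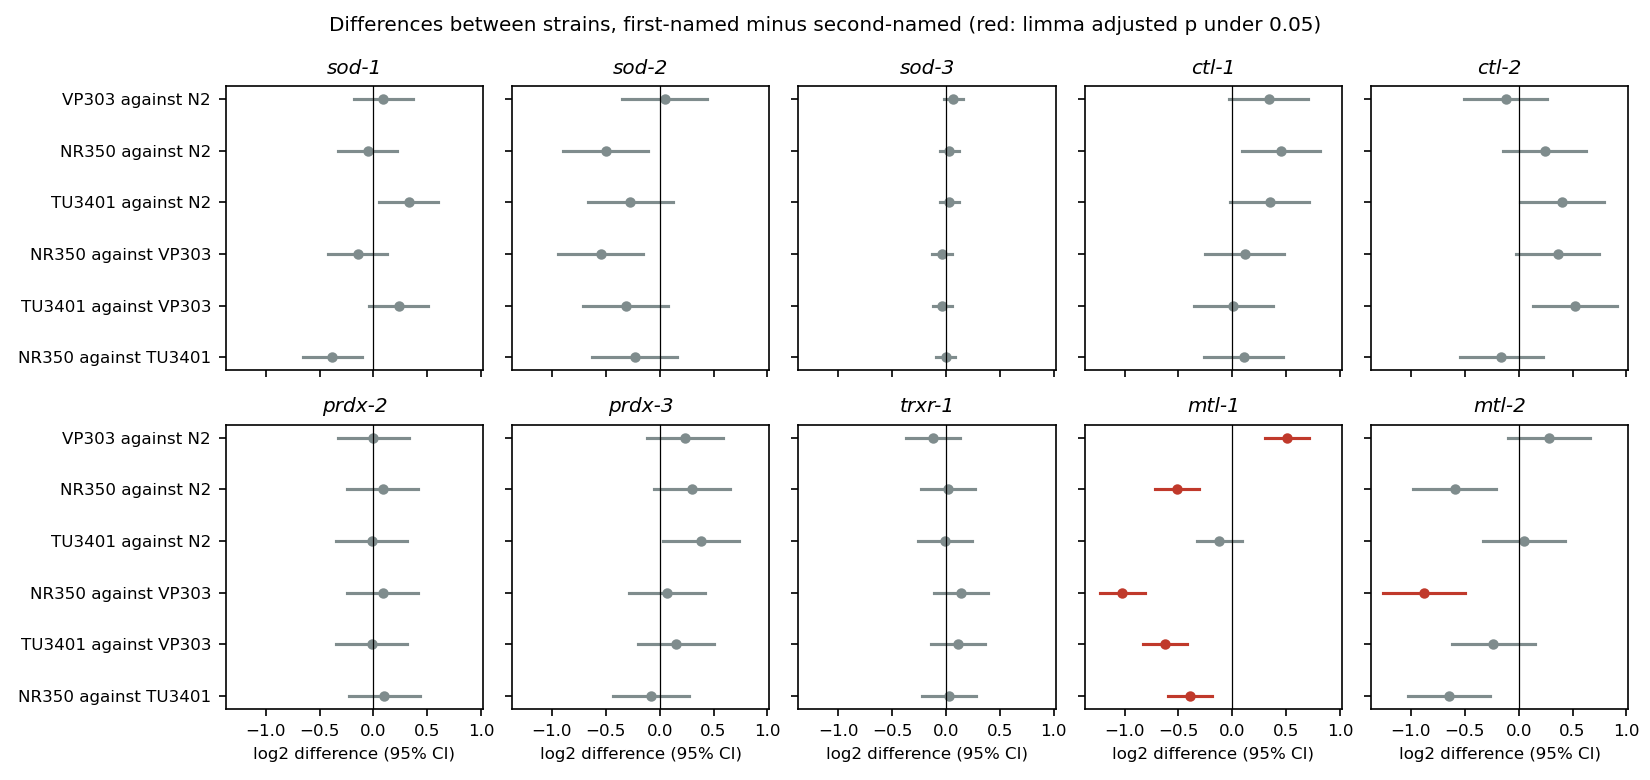
Log2 difference (first-named strain minus second-named) of each gene in the 6 strain pairs, with 95% confidence intervals from limma on 8 arrays; red marks an adjusted p under 0.05. The 6 red intervals are 5 of mtl-1 and 1 of mtl-2, and the other 8 genes have none.

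Across the 60 combinations of gene and strain pair, 6 passed, all of them in a metallothionein. The share of all features past the same threshold was 0.64% for VP303 against N2, 7.18% for NR350 against N2, 0.604% for TU3401 against N2, 5.18% for NR350 against VP303, 1.6% for TU3401 against VP303 and 6.74% for NR350 against TU3401. The members called numbered 1, 1, 0, 2, 1 and 1 of 10 in those pairs. By direction, 1 of 10 was higher in VP303 against N2, as were 0.457% of all features. Those lower were 1 of 10 against 3.16% of all features in NR350 against N2, 2 of 10 against 2.35% in NR350 against VP303, 1 of 10 against 1.2% in TU3401 against VP303 and 1 of 10 against 2.22% in NR350 against TU3401. Among features with a mean log2 above 5, which includes 8 of the 10 genes but not sod-3 or mtl-1, the shares were 1.86%, 17.9%, 1.49%, 13.1%, 4.17% and 16.3%. Of those 8 genes, 0, 0, 0, 1, 0 and 0 were called. The pairs share arrays and are not independent of each other.

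The main treatment comparison asked for a response to ash-2 RNAi common to the strains. None of the 10 passed limma with strain as a block, as 0% of all features did. Within this comparison, 0 of the 10 genes were past an unadjusted p of 0.05, against 7.99% of all features. The 4 arrays of each treatment overlapped for every one of the 10 genes, while they did not overlap for 2.37% of all features. No member differed by 2-fold within any strain, where 0.363%, 0.144%, 0.137% and 0.353% of features did in VP303, NR350, TU3401 and N2.

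Of the dismutases, sod-1 differed by -0.01 in VP303, -0.03 in NR350, -0.29 in TU3401 and 0.05 in N2 between the array labelled ash-2 and the control (mean -0.07 ± 0.15, SD, n = 4 strains). sod-2 pointed both ways, with 0.17, 0.27, -0.21 and -0.45 in the same strains (mean -0.06 ± 0.33), and was the member whose response varied most between strains. The mean of sod-3 was -0.002 ± 0.041, with 95% limits of -0.06 and 0.06 on a compressed scale. The mean sign of sod-1 turned without the TU3401 arrays (0.0047) and that of sod-2 without the N2 arrays (0.08). The sign of sod-3 also turned with normalization or arrays left out.

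The peroxide-removing genes had positive means, none of which passed. ctl-1 differed by 0.38 in VP303, 0.39 in NR350, -0.13 in TU3401 and 0.18 in N2 (mean 0.21 ± 0.25, limma adjusted p = 0.708 in the test over all features, n = 4 strains). ctl-2 differed most in NR350 (0.55), against 0.17 in VP303, 0.06 in TU3401 and -0.10 in N2, and its mean fell to 0.04 without the NR350 arrays, against 0.17 with them. prdx-2 and prdx-3 were higher in the arrays labelled ash-2 of all 4 strains. The prdx-2 difference was 0.08, 0.01, 0.12 and 0.29 in VP303, NR350, TU3401 and N2 (mean 0.12 ± 0.12). The prdx-3 difference was 0.0006, 0.36, 0.02 and 0.35 in the same order (mean 0.18 ± 0.20), so that it came from NR350 and N2. trxr-1 differed by 0.16, 0.01, 0.24 and -0.06 (mean 0.09 ± 0.13).

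The metallothioneins went apart under ash-2 RNAi without passing. mtl-1 differed by 0.11 in VP303, 0.08 in NR350, 0.06 in TU3401 and -0.01 in N2 (mean 0.06 ± 0.05). mtl-2 was lower in the array labelled ash-2 of all 4 strains, by -0.16, -0.01, -0.63 and -0.12, with a mean of -0.23 ± 0.27 (SD, n = 4 strains) and a 95% confidence interval from -0.50 to 0.04. Its largest value came from TU3401, and without those arrays the mean was -0.10. In all, 3 of the 10 genes had the same sign in all 4 strains, against 16.1% of all features and 20.9% of those with a mean log2 above 5. The median of the mean differences was 0.07 over the 10 genes and -0.003 over all features.

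**Figure D3:**
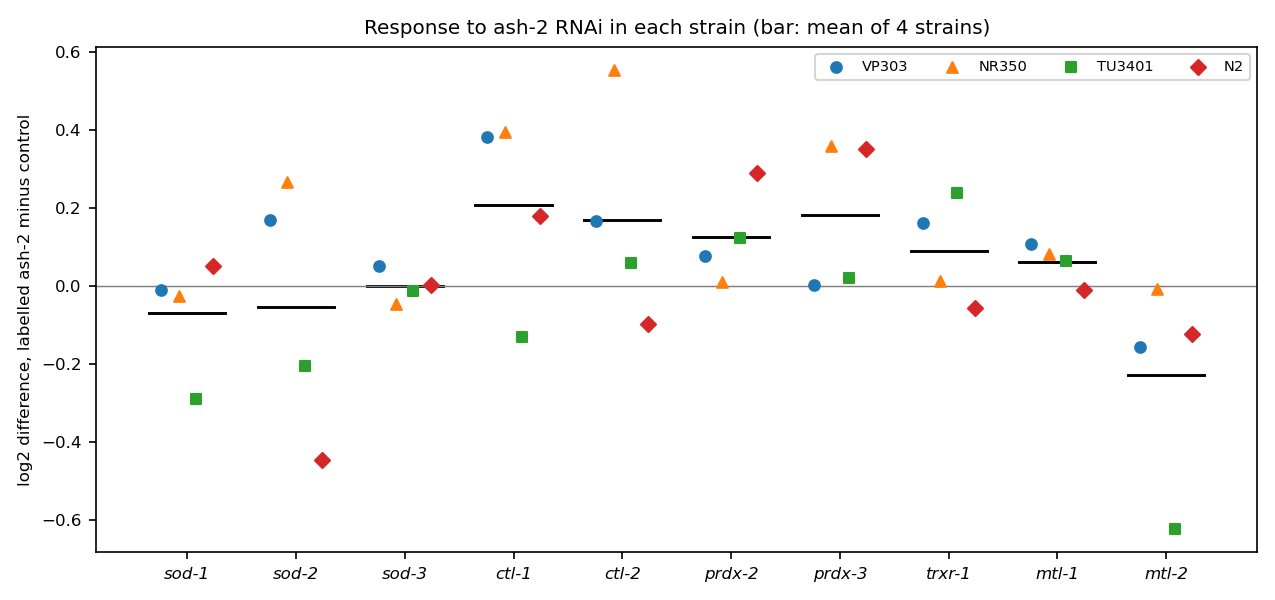
Log2 difference between the array labelled ash-2 and the control array in VP303, NR350, TU3401 and N2 for each of the 10 genes; bars show the mean of the 4 strains. The points span 0 for 7 of the 10 genes, prdx-2 and prdx-3 lie above 0 and mtl-2 below 0 in all 4 strains, and the lowest point is mtl-2 in TU3401, at -0.63.

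A further comparison set the response in N2 and VP303, where the labels place RNAi in the intestine, against that in NR350 and TU3401. None of the 10 genes passed limma (0% of all features did, 5.74% at an unadjusted p under 0.05, and 0 of the 10). The largest differences of response were -0.27 for ctl-2 (95% confidence interval -0.81 to 0.27) and 0.18 for sod-1 (-0.21 to 0.57). The differences were -0.02 for mtl-1 (-0.33 to 0.28) and 0.18 for mtl-2 (-0.38 to 0.73). With 2 residual degrees of freedom these intervals leave room for changes of some size in either direction.

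Of 79 other measured genes of these pathways, in 6 lists, 12 passed limma in NR350 against N2, all of them higher, which is 15.2% against 7.18% of all features (4.02% higher). Of the 48 with a mean log2 above 5, 18.8% passed, against 17.9% of such features. In NR350 against VP303 and against TU3401, 10.4% and 25% of these 48 passed, against 13.1% and 16.3% of such features. Of the 79, 1 passed in VP303 against N2 (cdr-4) and 0 in TU3401 against N2, where 2 passed when features with a mean log2 up to 5 were dropped. In NR350 against TU3401, 14 passed higher and 1 lower (19%, against 6.74% of all features, 4.53% higher). The 1 lower was the peroxidase skpo-1 (-0.56, limma adjusted p = 0.043, lost without N2 or without VP303), and those higher included the zinc transporter cdf-1 (0.66, adjusted p = 0.0185) and ftt-2, whose protein binds DAF-16 (0.39, adjusted p = 0.0466, lost without VP303 and under 3 other settings). In NR350 against VP303, 6 passed higher and 1 lower (8.86%, against 5.18%, 2.84% higher). In TU3401 against VP303, the kinase genes pmk-1 (-1.20, adjusted p = 0.00526) and gsk-3 (-0.97, adjusted p = 0.0341) passed, both lower. For the shared response to ash-2 RNAi and for the class contrast, 0 of 79 passed.

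Metal handling held 4 of the 12 in NR350 against N2, of 21 genes measured. hmt-1, an ABC transporter that moves heavy metal complexes, had 172 and 145 units in NR350, against 79.8 and 75.2 in N2 (1.03, SE 0.18, limma adjusted p = 0.00593). smf-3, an iron and manganese importer of the intestine, had 38.4 and 28.6 units in NR350, against 23.6 and 22.4 in N2 (0.53, SE 0.10, adjusted p = 0.00866). The cadmium-responsive genes cdr-2 (0.65, adjusted p = 0.005) and cdr-4 (0.78, adjusted p = 0.0164) were also higher. Both went against mtl-1, which was lower in the same strain, but the measured cdr genes did not all do so. cdr-6 had 295 and 268 units in NR350, against 317 and 345 in N2, the same direction as mtl-1, and did not pass. cdr-1 and cdr-3 lay close to the bottom of the scale on all arrays, as did cdr-2 in N2 (23.3 and 21.98 units). cdr-4 had 125 and 76.0 units in VP303, against 54.1 and 40.6 in N2 (1.06, SE 0.17, adjusted p = 0.0166), and was higher there together with mtl-1. The hmt-1, smf-3, cdr-2 and cdr-4 calls were all lost without a variance trend, as were those of 22 of the 37 calls made over all pairs in these lists.

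cuc-1, the copper chaperone that feeds the secretory pathway, was the metal gene that passed as lower in NR350, and only against VP303. It had 406 and 590 units in NR350, against 1280 and 868 in VP303 (-1.11, SE 0.23, limma adjusted p = 0.0182). The arrays within each of these strains differed by over 1.4-fold in opposite directions, so the size is uncertain. With 1 array per group, an effect of the treatment was not tested.

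**Figure D4:**
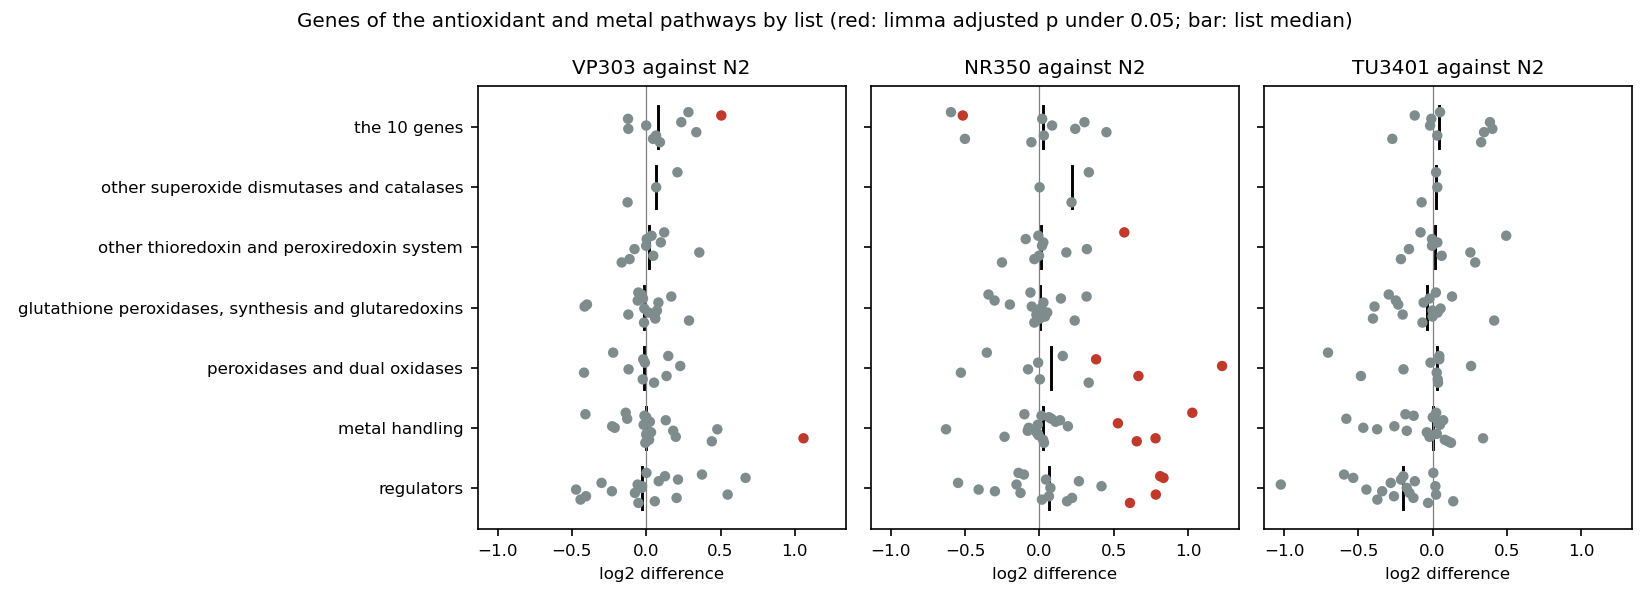
Log2 difference of each gene of the pathway lists in VP303, NR350 and TU3401 against N2 (1 point per gene, red for a limma adjusted p under 0.05, bar for the list median). In NR350 the 12 red points of the other pathway lists lie right of 0, while mtl-1, in the top row, lies left of it.

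Peroxidases and regulators gave most of the rest. The peroxidase skpo-3 had 109 and 109 units in NR350, against 56.0 and 38.5 in N2 (1.23, SE 0.15, limma adjusted p = 6.13e-04), and it was higher in NR350 than in VP303 (1.00) and TU3401 (0.97) too. mlt-7, a peroxidase of cuticle formation, rose in NR350 against N2 (0.67, limma adjusted p = 0.0383) and against TU3401 (1.149, adjusted p = 0.00263). pxn-1, a peroxidasin, rose in NR350 against N2 (0.38, adjusted p = 0.0476), a call lost without VP303 and under 3 other settings. It had 37.2 and 28.1 units in NR350, against 25.4 and 24.2 in N2, close to the bottom of the scale. Of the 19 regulators, the p38 kinase pmk-1 (0.83, adjusted p = 0.00924) and its activator sek-1 (0.81, adjusted p = 0.00949) were higher in NR350 than in N2, beside elt-2 and daf-16. In TU3401 against N2, the regulators had a median of -0.20, with 4 of 19 above 0, against a median of 0.009 over all features. The median absolute difference of features with a mean log2 above 5 was 0.185 in that pair. None of the 19 passed in the test over all features, and mxl-3 gave the largest difference (-1.02, limma adjusted p = 0.0767).

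Few of the nearest relatives of the 10 genes passed. Of 3 further dismutases and catalases, sod-4, sod-5 and ctl-3, none passed in any comparison. sod-4, an extracellular dismutase, differed by 0.57 in VP303 and by -0.68 in NR350 between the array labelled ash-2 and its control, and its class contrast was 0.70 (95% confidence interval 0.11 to 1.29, limma adjusted p = 0.8285). sod-5 lay between 19.5 and 21.95 units on all arrays. Of 10 genes of the thioredoxin and peroxiredoxin system, sesn-1, a sestrin, passed in NR350 against N2 (0.57, limma adjusted p = 0.0494) and, with trx-3, a thioredoxin of the intestine, in NR350 against TU3401 (0.65 and 0.48, adjusted p = 0.0285 and 0.0284). trx-3 had 34.9 and 30.6 units in NR350, against 24.6 and 22.4 in TU3401, close to the bottom of the scale. The sesn-1 call against N2 was lost without VP303 and under 3 other settings. None of 16 genes of the glutathione peroxidases, glutathione synthesis and glutaredoxins passed in any comparison. For the shared response, the largest differences over these lists were cdr-4 (0.39, adjusted p = 0.481), skn-1 (0.31, adjusted p = 0.551) and msra-1 (-0.31, adjusted p = 0.611), none past the threshold.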

How the data were processed

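Single-colour arrays were scanned with Affymetrix GeneChip Command Console 2.0 and imported into GeneSpring GX 11.0.2, per the series' design text, and RMA was used, per the submitters' processing notes. The values deposited by the authors are normalized intensities on a linear scale. No source used here states the RMA version, the summarisation level or the genome build, so no coordinates are printed. Log2 was taken of the deposited intensity with nothing added and no filter. Features were named through the platform annotation, with symbols updated through gene identifiers in RefSeq (assembly WBcel235): 25546 features had 1 symbol, 646 several and 1600 none. The rule for a gene with several features was the highest mean, but each of the 10 genes had only 1.

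limma 3.58.1 (lmFit, eBayes with a trend, two-sided, R 4.3.3) was fitted to all 27792 features with Benjamini-Hochberg adjustment and a threshold of 0.05. Strain and treatment were terms for the shared response and the 6 strain pairs (3 residual degrees of freedom), and the class contrast left 2. Labels name no separate cultures, so p-values measure only the spread between these arrays. Arrays were paired by strain, and the deviations of paired arrays from their treatment means correlated at 0.574 in VP303, 0.839 in NR350, 0.525 in TU3401 and 0.684 in N2. Within a strain there is no test. Precision is limited by having 8 arrays. The fits were tested on simulated data with independent normal noise. Changes were added only to features with a mean log2 above 5, so this does not cover dim genes such as sod-3 and mtl-1.

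The 10 genes, the pathway and marker lists, the tests and the alternatives were chosen with earlier results of these data known. Of the pathway genes, txnl-4, cdr-5, cdr-7, hif-1, nhr-33 and nsy-1 were not matched under these symbols. The text names all 10 genes, the strain genes, pathway genes that passed or had the largest differences per comparison, and the 3 genes most like each of the most variable pair.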

Additional observations from a re-analysis of the deposited data

How the results depend on the processing

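Of the results for the 10 genes, no strain difference that passed changed direction under quantile normalization, median centring or with the offset removed. The other alternatives left the strain differences themselves unchanged, so they could not test direction. The count of members that passed was 1 in VP303 against N2 and 0 under quantile normalization, on the scale of the intensity minus 16, without a variance trend and when features with a mean log2 up to 5 were dropped, where mtl-1 is not tested. It was 1 in NR350 against N2 and 2 with the offset removed, with a robust prior and at an adjusted p under 0.10. In NR350 against VP303 it was 2, but 1 without dim features or without a variance trend. In TU3401 against VP303 it was 1, but 0 without dim features. In NR350 against TU3401 it was 1, but 2 under quantile normalization, with the offset removed, without dim features, with a robust prior, over features with exactly 1 symbol and at an adjusted p under 0.10. Leaving out 1 strain gave 0 to 1 in VP303 against N2 (0 without NR350) and 1 to 2 in NR350 against N2 (2 without TU3401). Causes other than the fewer features or arrays tested were not tested.

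Signs turned only for differences that did not pass. Under quantile normalization these were sod-3 (0.00601) in the shared response, prdx-2 in VP303 against N2 (0.025), TU3401 against N2 (0.069) and TU3401 against VP303 (0.044), sod-1 in NR350 against N2 (0.040), trxr-1 in TU3401 against N2 (0.085) and NR350 against TU3401 (-0.068), and sod-3 in NR350 against TU3401 (0.012). Under median centring they were sod-3 (0.0059 in the shared response, 0.0096 in NR350 against TU3401) and ctl-1 in TU3401 against VP303 (-0.0048), and with the offset removed prdx-2 in VP303 against N2 (0.00069). Leaving out 1 strain gave means of the shared response from -0.109 to 0.00469 for sod-1, from -0.163 to 0.0751 for sod-2 and from -0.0193 to 0.0134 for sod-3. In the class contrast it gave -0.477 to 0.138 for sod-2, -0.114 to 0.411 for ctl-1, -0.189 to 0.160 for prdx-3, -0.185 to 0.0401 for trxr-1, -0.0837 to 0.0366 for mtl-1 and -0.132 to 0.485 for mtl-2.

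Without strain as a replicate block, 0 of the 10 genes passed in the shared response, as with it. Over all features the shared response had 0 calls, but up to 25 without TU3401, and the class contrast 0, but up to 56 without dim features. Counts over all features ranged from 42 to 283 in VP303 against N2 (178 as reported), 1351 to 2921 in NR350 against N2 (1995) and 39 to 346 in TU3401 against N2 (168). They ranged from 805 to 2166 in NR350 against VP303 (1440), 126 to 861 in TU3401 against VP303 (444) and 1240 to 2974 in NR350 against TU3401 (1874). Counts of the 79 pathway genes ranged from 0 to 2 (1), 8 to 15 (12), 0 to 2 (0), 2 to 8 (7), 1 to 7 (2) and 8 to 17 (15) in the pairs in that order. Another feature of the same gene could not be tried, since each gene has 1. Signals near 18 limit what can be seen of sod-3 and of mtl-1 in NR350.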

Other observations

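msra-1, a methionine sulfoxide reductase, had 82.6 units on the TU3401 control array and between 40.1 and 45.3 units on the other 7 arrays. The same array was the highest of the 8 for sod-1, at 1264 units.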
